A study of Mus musculus with 9 samples.

Results

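The comparison set a mouse embryonic stem (ES) cell line that carries unfused OCT4 against J1, a widely used mouse ES cell line. It used 3 RNA-seq libraries of the line with OCT4, called the OCT4 line here, and 3 of J1, which are 6 of the 9 libraries of the study. Libraries were assigned by their titles, and no measured value entered the choice. The other 3 libraries came from a line with EWS-OCT4, in which the RNA-binding protein EWS is fused to OCT4. They are given only where a value shows how the OCT4 line stands beside a second stable line. Where the EWS-OCT4 libraries are not given, a difference from J1 may be shared by both stable lines. All 3 kinds of cell were grown in ES cell medium with the cytokine LIF. Both stable lines, which the labels name Niwa lines, received doxycycline at 1 µg/ml to lower their endogenous OCT4. The sources used here do not give whether J1 received doxycycline, whether a line's 3 libraries stem from separate cultures or separately derived clones, or which promoter drives the introduced OCT4. The p-values therefore describe the spread between libraries, and part of that spread may be technical. Against J1 the construct and the host line changed together, as did the drug if J1 received none, and their effects cannot be told apart.

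OCT4, encoded by Pou5f1, is a POU-domain transcription factor that works with SOX2 and NANOG to hold ES cells in the pluripotent state. It is known for dose-dependent control of fate: mouse ES cells that lose it turn toward trophoblast, the outer lineage of the blastocyst, and its level also bears on the choice of endoderm and mesoderm. ES cells further depend on signals, among them LIF acting through STAT3, BMP acting through the SMAD proteins and ID genes, FGF acting through ERK, Nodal, and Wnt. The lists below follow these lineages and pathways.

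Library totals were between 21149358 and 24360894 counts in the 6 libraries. Of 40213 gene symbols, 16562 had enough counts to test. A gene is called higher or lower in the OCT4 line where edgeR's quasi-likelihood test gave a Benjamini-Hochberg adjusted p under 0.05. Differences are log2 fold changes of the OCT4 line over J1, and levels are CPM, which are counts scaled by each library's TMM-adjusted total. By this rule 67.0% of tested genes were called, of which 5674 genes (34.3%) were higher and 5424 (32.7%) lower. With at least a 2-fold difference the numbers were 2487 (15.0%) higher and 1902 (11.5%) lower. The 3 OCT4 values lay above all 3 J1 values for 35.1% of tested genes and below them for 33.3%. The median difference over all tested genes was 0.00616. These shares are the background against which each list below is to be read. Gm26917, an abundant predicted gene, took between 3.71% and 5.81% of counts in the OCT4 libraries and between 0.84% and 1.12% in J1. Genes of the mitochondrial genome took between 10.6% and 12.8% and between 12.7% and 16.0%. Without these genes the numbers of calls stayed within 1.5 times those above.

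Genes of 4 chromosomes stood apart as a whole. The median difference was 0.63 for 603 tested X-linked genes, of which 377 (62.5%) were higher in the OCT4 line, and -0.47 and -0.46 for 863 genes of chromosome 8 and 1324 of chromosome 11. Across all autosomal genes it was -0.018. Xist, the noncoding RNA that silences an X chromosome, had 0.121, 0.319 and 0.0940 CPM in the J1 libraries and 11.9, 12.7 and 11.4 in the OCT4 libraries. The Y-linked translation factor gene Eif2s3y fell by 2.11 (SE 0.0650), from 243 ± 5.20 to 56.1 ± 1.89 CPM (SD, n = 3), and its X-linked partner Eif2s3x rose by 0.63 (SE 0.0649). The Y-linked genes Uty, Ddx3y and Zfy1 were lower as well, with differences of -1.88, -1.46 and -1.91. The number of members on chromosomes 8, 11 and X is therefore given with some of the lists. The part of sex chromosome content or copy number in these medians was not tested.

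**Figure D1:**
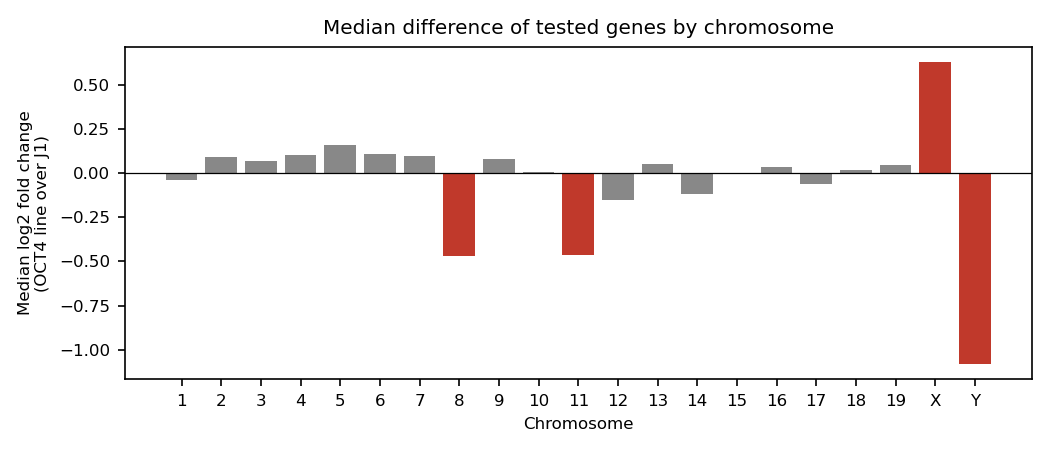
Median log2 fold change of the OCT4 line over J1 (vertical axis) for the tested genes of each chromosome (horizontal axis), with bars in red for chromosomes 8, 11, X and Y. The X-linked median was 0.63 and those of chromosomes 8 and 11 were -0.47 and -0.46, and that of the 10 tested Y-linked genes was -1.08.

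Pou5f1 itself was lower in the OCT4 line. J1 libraries had 522, 639 and 545 CPM and OCT4 libraries 165, 168 and 162, so that the OCT4 line stood at 29.0% of J1 and the groups did not overlap. The difference was -1.79 (SE 0.0810), with adjusted p = 2.90e-12 by edgeR's quasi-likelihood test, lower in 3 of 3 libraries. A two-sided exact permutation test over the libraries gave p = 0.1, and a permutation of 3 against 3 libraries cannot go lower. Reads of the construct and of the endogenous gene may both fall in these counts, which therefore give no measure of OCT4 protein. In bulk RNA, fewer cells of a type and less RNA per cell cannot be told apart, here or in any list below.

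The libraries were checked against defining markers of cell types. The summed level of 9 ES cell markers lay between 4698 and 5128 CPM in J1 and between 2777 and 2818 in the OCT4 line, with every marker detected in both groups. For 6 trophoblast markers the sums were 89.3 to 102 CPM in J1 and 319 to 346 in the OCT4 line. Tfap2c alone had means of 91.0 and 215 CPM and Hand1 of 1.78 and 78.2, while Elf5 overlapped between the groups. The sums of 6 primitive endoderm markers were 25.8 to 31.4 and 21.7 to 24.2. Among these Dab2 fell from a mean of 17.9 to 5.24 CPM, while Gata6 rose from 1.76 to 9.34. The 8 fibroblast markers, which would mark feeder cells, summed to 80.9 to 100.3 CPM in J1 and 57.7 to 64.0 in the OCT4 line, with Dcn and Lum at 0 in J1 and Lum at 0 in the OCT4 line. The 3 blood markers summed to 7.87 to 11.4 and 9.98 to 11.4 CPM. The part of these other cell types in the lists below was not tested.

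Genes of the naive state, the ground state of mouse ES cells, went in both directions. Of 23 tested members 10 were higher and 10 lower, with 4 in each direction changed by at least 2-fold and a median of 0.046. Nanog, a core pluripotency factor, rose by 0.96 (SE 0.0660), from 277, 249.8 and 258 CPM in the J1 libraries to 514, 525 and 489 in the OCT4 libraries. The naive factors Tfcp2l1 and Tbx3 rose by 1.55 and 1.16, and Spic, an ETS-family factor, by 2.35. Over the OCT4 and EWS-OCT4 libraries Tfcp2l1 had 45791 and 44542 counts, and Spic 498 and 132. Zfp42 (Rex1), a zinc-finger marker of the naive state, had 1307, 1434 and 1534 CPM in J1 and 439, 407 and 441 in the OCT4 line. Zfp42 fell by 1.73 (SE 0.0754), with no overlap. Klf2, a Krüppel-like factor of the naive network, fell by 1.54, Esrrb, an orphan nuclear receptor of that network, by 0.64 and Dppa3, a maternal-effect and germ cell gene, by 2.18. Tdh, the threonine dehydrogenase on which mouse ES cell metabolism depends, fell from 267 ± 25.5 to 39.7 ± 3.41 CPM (SD, n = 3), a difference of -2.75 (SE 0.0843). Klf4 did not pass the test, at 0.10 (SE 0.0720). Zfp42 and Klf2 lie on chromosome 8, and outside chromosomes 8, 11, X and Y the count was 10 higher and 6 lower of 19.

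General pluripotency genes, which the naive and primed states share, were mostly lower. Of 22 tested members 20 were lower, 10 of them by at least 2-fold, and 1 was higher, with a median of -0.84. The RNA-binding proteins of this list were lower in 5 of 5 cases. Lin28b, which blocks maturation of the let-7 microRNAs, had 36.2, 37.8 and 38.6 CPM in J1 and 4.29, 4.88 and 3.74 in the OCT4 line. Its difference was -3.12 (SE 0.108), with adjusted p = 8.57e-14, and the groups did not overlap. Esrp1, an epithelial splicing regulator, fell by 2.92, and the adhesion genes Epcam and Cdh1 (E-cadherin) by 1.71 and 1.29. Sox2, the partner of OCT4 on shared DNA sites, was lower by a smaller amount, -0.32 (SE 0.0851). Tcf7l1 (also called TCF3 in ES cells), a repressor of pluripotency genes, was the member that rose, by 0.99 (SE 0.143). Of the 22 members, 3 lie on chromosome 8 and 2 on X, and of the other 17 members 16 were lower.

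Genes of the formative and primed states, through which cells pass on leaving naive pluripotency, were lower in 12 of 18 cases and higher in 2, with a median of -0.66 and 7 lower by at least 2-fold. Otx2, the homeobox factor that opens this transition, fell from 76.4 ± 4.27 to 30.5 ± 3.70 CPM (SD, n = 3), a difference of -1.32 (SE 0.0850). Lef1, a Wnt effector, had 434 counts over the 3 J1 libraries and 14 over the OCT4 libraries, a difference of -4.84 (SE 0.283). Myrf, a membrane-bound transcription factor, fell by 3.34, Foxp1, a forkhead factor, by 2.12, Zic2, a zinc-finger factor, by 2.02, and the de novo DNA methyltransferase Dnmt3a by 1.38. Fgf5, the usual primed-state marker, was too low to test, with 19 counts over the J1 libraries and 3 over the OCT4 libraries. Sox4 did not pass the test, at 0.18 (SE 0.1002).

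Trophoblast genes were higher in the OCT4 line for most members. Of 45 tested, 33 were higher and 7 lower, with 26 and 3 changed by at least 2-fold and a median of 1.28. No J1 library reached 10 counts for 3 of the 45, all of them higher. Of the 45 members 4 lie on chromosome 11 and 2 on X, and outside chromosomes 8, 11, X and Y 28 of 39 were higher and 7 lower. Its specifying transcription factors Cdx2 and Gata3 had few counts in J1. Cdx2, the caudal homeobox factor that sets up trophectoderm, had 4 counts over the 3 J1 libraries and 539 over the OCT4 libraries, at 6.65, 9.13 and 8.11 CPM in the latter. Its fitted difference of 7.01 (SE 0.358) rests on those few J1 counts. Gata3, a GATA factor of early trophectoderm, had 0.0803, 0.279 and 0.188 CPM in J1 and 17.8, 19.8 and 21.7 in the OCT4 line, a difference of 6.72 (SE 0.237). Hand1, a bHLH factor of trophoblast giant cells and of mesoderm, had 1.49, 1.92 and 1.93 CPM in J1 and 68.1, 82.5 and 83.9 in the OCT4 line. Hand1 rose by 5.46 (SE 0.127), with adjusted p = 8.24e-16, although it lies on chromosome 11, whose median was negative. None of these 3 genes overlapped between the groups.

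Other factors of the lineage rose by less or fell. Gata2, a further GATA factor of trophoblast, rose by 4.38 (SE 0.159), from 0.837 ± 0.209 to 17.3 ± 0.485 CPM (SD, n = 3). Eomes, a T-box factor of trophoblast stem cells and of the primitive streak, rose by 1.62, Tfap2c, an AP-2 factor, by 1.24 and Tead4, the TEAD factor upstream of Cdx2 in the embryo, by 1.49. Elf5, which maintains trophoblast stem cells, did not pass the test, with 0.161, 0.199 and 0.517 CPM in J1 and 0.646, 0.226 and 0.378 in the OCT4 line. Ascl2 and Tfap2a did not pass either, at 0.33 (SE 0.225) and 0.25 (SE 0.201). The epithelial regulator Grhl2 fell by 1.69, Grhl1 by 0.98 and Id2, an inhibitor of bHLH factors, by 0.41. The list's transcription factors numbered 15 higher and 4 lower of 24.

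Among the products that trophoblast cells make, 18 of 21 were higher and 3 lower. The ligand gene Wnt7b had 0.964, 1.08 and 0.705 CPM in J1 and 28.7, 30.5 and 31.3 in the OCT4 line, a difference of 5.02 (SE 0.148). Peg10, an imprinted retrotransposon-derived gene that the placenta needs, rose by 2.56 (SE 0.0874), from 433 ± 51.9 to 2562 ± 62.0 CPM (SD, n = 3). Fgfr2, the receptor through which FGF4 maintains trophoblast stem cells, rose by 2.62 (SE 0.0900). The keratin pair of simple epithelia, Krt8 and Krt18, rose by 1.64 and 1.60, and the tight junction gene Cldn4 by 2.17. Tspan8, a tetraspanin, fell by 3.48 and Phlda2, an imprinted growth regulator of the placenta, by 0.85. The hormone and spongiotrophoblast genes Prl3d1, Prl2c2 and Tpbpa did not have enough counts to test.

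**Figure D2:**
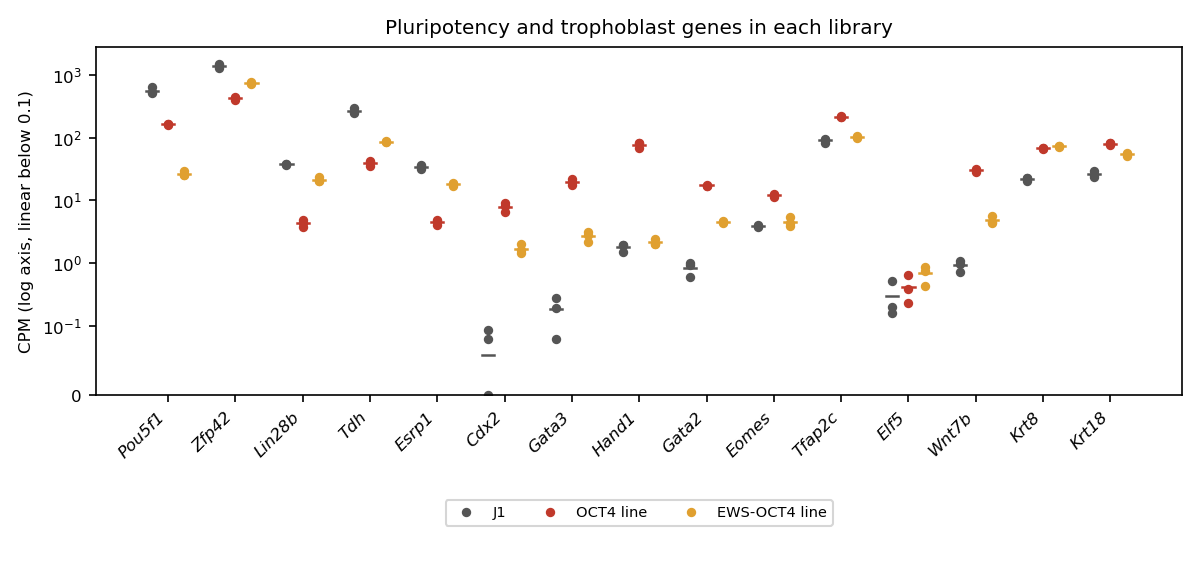
CPM of pluripotency genes (Pou5f1 to Esrp1) and trophoblast genes (Cdx2 to Krt18) in each library, on an axis that is logarithmic above 0.1 and linear below. Points are libraries and short lines are means of the J1, OCT4 and EWS-OCT4 groups (3 libraries each), and for each gene but Elf5 the J1 and OCT4 points are apart.

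Several trophoblast genes also differed between the OCT4 and EWS-OCT4 lines, a contrast in which 66.5% of all tested genes were called. Cdx2 was higher in the OCT4 line by 2.23 (SE 0.207), Gata3 by 2.86 (SE 0.155), Hand1 by 5.19 (SE 0.125) and Wnt7b by 2.63 (SE 0.116), with adjusted p of at most 4.36e-08 by edgeR's quasi-likelihood test and no overlap of the libraries. Hand1 had 2.02, 2.42 and 1.98 CPM in the EWS-OCT4 libraries. Krt8 did not pass that test, at -0.11 (SE 0.0671). Pou5f1 was higher in the OCT4 line by 2.62 (SE 0.0874), with 26.8 ± 2.12 CPM (SD, n = 3) in the EWS-OCT4 line.

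OCT4 and its relatives bind an octamer, and the sequences just before the start sites of the genes described here were searched for it, since Pou5f1 itself had fallen. The letters searched were ATGCAAAT on either strand, in the 250 bases before the start, from RefSeq promoters on build GRCm38.p6. Of 32851 windows, 526 (1.6%) held it. Of 44 genes looked up, namely preset anchor genes and the genes of largest difference, 36 matched and 3 held the octamer. These were Cdx2 (minus strand, chr5:147307250-147307499), Zfp42 (minus strand, chr8:43307010-43307259) and Gadd45g (plus strand, chr13:51846425-51846674). The octamer begins 147, 186 and 103 bases before the start, forward in Cdx2 and in reverse in the other two. They are shown because Cdx2 and Gadd45g rose while Zfp42 fell, with the octamer in capitals and the start site just after the last base.
Cdx2: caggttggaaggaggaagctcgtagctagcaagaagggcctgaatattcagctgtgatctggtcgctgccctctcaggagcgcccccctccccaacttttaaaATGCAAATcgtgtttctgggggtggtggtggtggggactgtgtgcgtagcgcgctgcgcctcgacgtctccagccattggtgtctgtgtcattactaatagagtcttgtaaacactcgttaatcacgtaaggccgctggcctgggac
Zfp42: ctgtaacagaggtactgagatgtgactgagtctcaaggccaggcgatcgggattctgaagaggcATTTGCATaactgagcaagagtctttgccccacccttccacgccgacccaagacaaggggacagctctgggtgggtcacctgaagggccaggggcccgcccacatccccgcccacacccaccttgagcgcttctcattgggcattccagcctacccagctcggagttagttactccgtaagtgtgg
Gadd45g: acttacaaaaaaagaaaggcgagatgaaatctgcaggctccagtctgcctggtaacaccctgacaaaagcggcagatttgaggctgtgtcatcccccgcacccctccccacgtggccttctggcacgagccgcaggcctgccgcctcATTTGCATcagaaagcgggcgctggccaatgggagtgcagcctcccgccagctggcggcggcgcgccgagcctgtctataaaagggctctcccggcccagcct
A match of letters is a description of the window, and binding was not measured. The 1.6% counts windows, whereas the 3 of 36 counts genes chosen in part for their differences. No enrichment can therefore be read from these shares.

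Primitive and visceral endoderm genes were split. Of 34 tested, 15 were higher and 10 lower, with 11 and 7 changed by at least 2-fold and a median of 0.36. Gata6, a GATA factor that specifies primitive endoderm, had 2.45, 0.958 and 1.88 CPM in J1 and 9.74, 9.53 and 8.74 in the OCT4 line, a difference of 2.40 (SE 0.270) with no overlap. Gata4, its partner in that lineage, did not pass the test, at 0.44 (SE 0.199). The basement membrane genes Col4a1 and Col4a2, which encode the chains of type IV collagen, rose by 2.11 (SE 0.0698) and 1.96 (SE 0.0901). J1 libraries had 72.5, 72.7 and 72.3 CPM of Col4a1 and OCT4 libraries 292, 331 and 315. Plat, tissue plasminogen activator, rose by 2.10. Among the members that fell, Cubn, the cubilin receptor, did so by 3.42, Dab2, an endocytic adaptor, by 1.77, Lama1 by 0.77 and Lamb1 by 0.56. Col4a1 and Col4a2 lie on opposite strands of chromosome 8 with RefSeq start sites 21 bases apart on build GRCm38.p6, and both differences were positive although the chromosome's median was negative. Of the list's 28 members outside chromosomes 8, 11, X and Y 10 were higher and 10 lower.

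Genes of the primitive streak and mesoderm were higher in 13 of 23 cases and lower in 4, with 13 and 3 changed by at least 2-fold and a median of 1.11. No J1 library reached 10 counts for 5 of the 23, and of the other 18 members 9 were higher and 4 lower. Of the 23 members, 2 lie on chromosome 8, 4 on chromosome 11 and 1 on X, and of the other 16 members 8 were higher and 3 lower. T (brachyury), the T-box factor that marks the primitive streak, fell from 1.08 ± 0.259 to 0.281 ± 0.0119 CPM (SD, n = 3), a difference of -1.91 (SE 0.442). Tbx20 and Tbx4, T-box factors of heart and hindlimb, rose by 3.69 (SE 0.203) and 2.41 (SE 0.183). Over the OCT4 and EWS-OCT4 libraries Tbx20 had 433 and 444 counts, and Tbx4 487 and 49. Snai1, a repressor of E-cadherin, had 1.33, 2.11 and 2.30 CPM in J1 and 5.59, 7.002 and 7.81 in the OCT4 line, a rise of 1.84. Other early streak genes split: Gsc, goosecoid of the anterior streak, rose by 5.11, and Mixl1, a homeobox factor, fell by 0.86. Gsc had 7 counts over the J1 libraries and 241 over the OCT4 libraries. It therefore entered the test through another group, and its fitted difference rests on those few J1 counts. Gsc and Mixl1 were chosen after their values were seen, because brachyury alone would not stand for the streak.

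Neural genes numbered 12 higher and 9 lower of 23, with 9 and 8 changed by at least 2-fold. Sox21, a neural SOX factor, had 2.21, 2.31 and 2.87 CPM in J1 and 21.8, 25.3 and 21.1 in the OCT4 line, a difference of 3.21 (SE 0.117). It had 1535 counts over the OCT4 libraries and 5166 over the EWS-OCT4 libraries. The progenitor genes Nes, Msi1 and Ncam1, for an intermediate filament, an RNA-binding protein and an adhesion molecule, rose by 1.05, 1.16 and 1.06. Among genes of neurons Elavl3, an RNA-binding protein, fell by 2.31, Stmn2, a microtubule regulator, by 1.30 and Tubb3, a neuronal tubulin on chromosome 8, by 1.24. Neurod1, a proneural factor, fell by 0.81. Neither progenitor nor neuron genes kept to a single direction. Map2, also a gene of neurons, had 1586 counts over the J1 libraries and 2880 over the OCT4 libraries. Pax6, a factor of neural progenitors, had 144 and 31. The list's effectors numbered 6 higher and 6 lower of 12, and its transcription factors 6 and 3 of 11.

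Lists of more differentiated tissues showed single genes of large difference and no common direction. Among 26 muscle genes 10 were higher and 9 lower. No J1 library reached 10 counts for 3 of the 26, all of them higher. Of the other 23 muscle genes 7 were higher and 9 lower. Tnnt3, fast skeletal troponin T, had 7 counts over the J1 libraries and 769 over the OCT4 libraries, at 9.79, 11.2 and 13.0 CPM in the latter, whereas the embryonic myosin gene Myh3 fell by 2.90 and smooth muscle Myh11 by 2.10. Liver and kidney metabolism genes were tested for 11 of 30 members, of which 5 were higher and 4 lower. Vnn1, a pantetheinase, had 8 counts over the J1 libraries and 797 over the OCT4 libraries. Bhmt, which remethylates homocysteine, rose by 5.04 (SE 0.163), from 1.53, 1.08 and 0.658 CPM to 34.7, 37.5 and 37.2. Fgg, fibrinogen gamma, rose by 4.49 and Cidea, a lipid droplet protein, by 4.09. Albumin (Alb) and Afp were among the 19 members too low to test. Blood and endothelial genes numbered 4 higher and 5 lower of 16, with Gata1, an X-linked erythroid factor, higher by 1.57 and Cd34 lower at -3.31. Fibroblast markers numbered 2 higher and 4 lower of 9, with Col1a1 falling by 2.40.

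**Figure D3:**
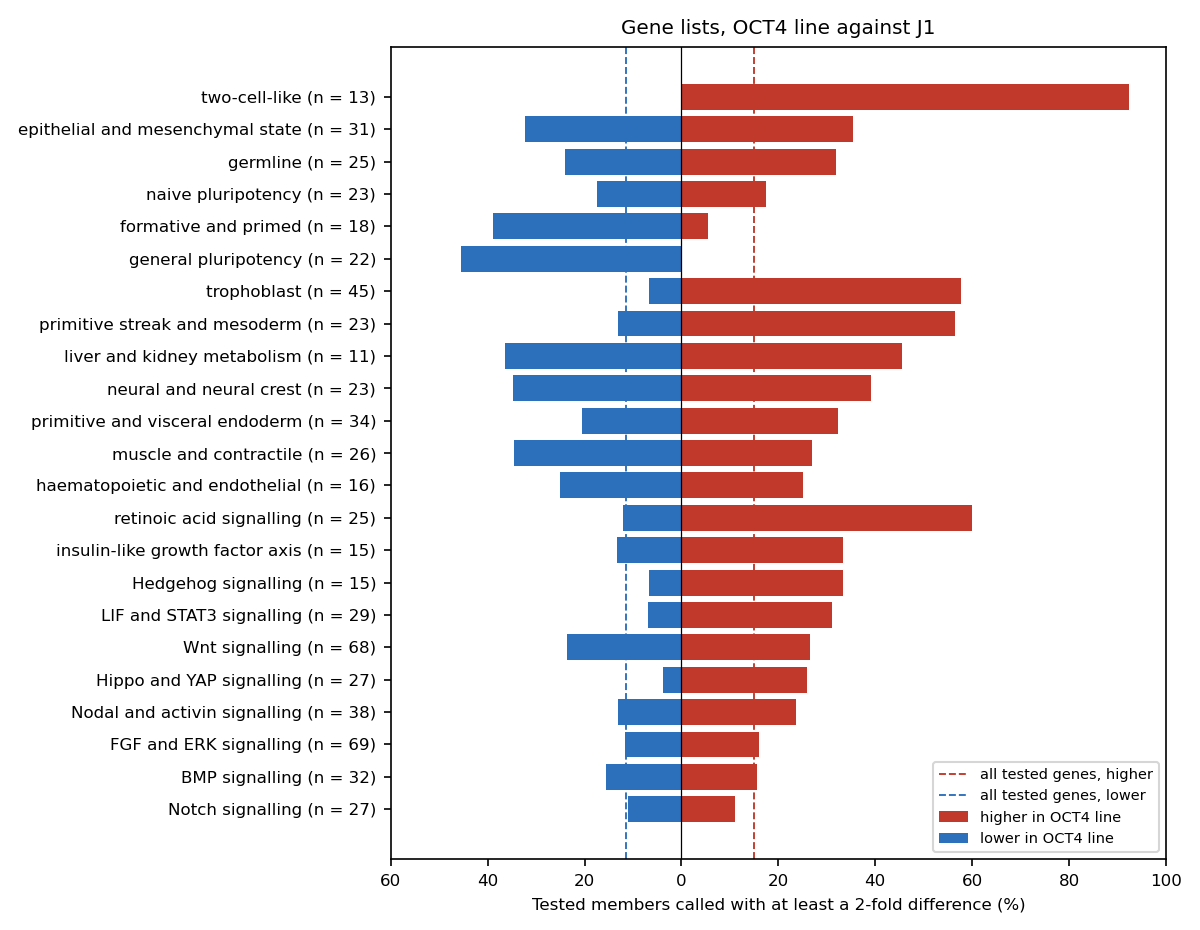
Share of tested members called with at least a 2-fold difference (horizontal axis, %), higher in the OCT4 line to the right in red and lower to the left in blue, for each state, lineage and signalling list, with the number tested in brackets. Dashed lines mark the shares over all tested genes, 15.0% higher and 11.5% lower, and the trophoblast list shows 26 higher and 3 lower of 45 against 0 higher and 10 lower of 22 for general pluripotency.

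Transcription factor families were read across all their members in the files. Hox genes, which pattern the body axis and are silent in most ES cells, had 39 members, of which 13 could be tested. Of these 11 were higher, each by at least 2-fold, and 0 lower, with a median of 2.05. Hoxc13 had 0.884, 1.52 and 1.13 CPM in J1 and 14.5, 13.0 and 13.4 in the OCT4 line, and Hoxb9 rose by 1.74. A gene that is near 0 in J1 is tested only if it is high in another group, so these 13 are not the family as a whole. Of the 13, 6 had no J1 library at 10 counts, and of the other 7 members 5 were higher and 0 lower. Both named genes stayed at low levels, with group means in the OCT4 line of 13.7 CPM for Hoxc13 and 8.20 for Hoxb9. The GATA family numbered 4 higher and 0 lower of 5, and the caudal and other ParaHox family 4 and 0 of 5. No J1 library reached 10 counts for 1 of these GATA and 4 of these ParaHox genes, so their direction follows in part from the filter on low counts. T-box factors numbered 8 higher and 2 lower of 12. Of these 12, 2 had no J1 library at 10 counts, both of them higher. Of the other 10 T-box factors 6 were higher and 2 lower.

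The Rhox cluster, a group of X-linked homeobox genes of the reproductive tract and placenta, had 31 members, of which 11 could be tested, with 9 higher and 1 lower. Of these 11, 4 had no J1 library at 10 counts and so entered the test through another group, and of the other 7 members 5 were higher and 1 lower. Rhox5 had 8.36, 11.8 and 11.3 CPM in J1 and 439.7, 518 and 566 in the OCT4 line, a difference of 5.60 (SE 0.126). Rhox9 and Rhox6 rose by 5.20 and 5.07, and Rhox10 fell by 1.44. All members are X-linked, where the median difference was 0.63. Rhox2, Rhox3 and Rhox4 genes are near-identical copies, so counts of single copies are uncertain.

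Other families lacked a common direction or were mostly lower. POU factors numbered 2 higher and 6 lower of 10, with Pou2f3, a factor of tuft cells and skin, falling by 3.38 and the broadly expressed Pou2f1 rising by 0.37. SOX factors numbered 4 higher and 8 lower of 18, with Sox11, a factor of neural progenitors, falling by 1.70 and Sox13 rising by 0.73. Forkhead factors numbered 13 higher and 9 lower of 27, Krüppel-like factors 7 (4 without OCT4 replicate 3) and 6 of 17, and Pax factors 2 and 3 of 5. For 2 of the 27 forkhead factors, both higher, no J1 library reached 10 counts. Of the other 25 forkhead factors 11 were higher and 9 lower. Klf6 rose by 1.32 and Klf12 fell by 1.19. Irx2, an Iroquois factor, and Lmx1b, a LIM homeobox factor of limb and midbrain, rose by 3.77 and 2.85.

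**Figure D4:**
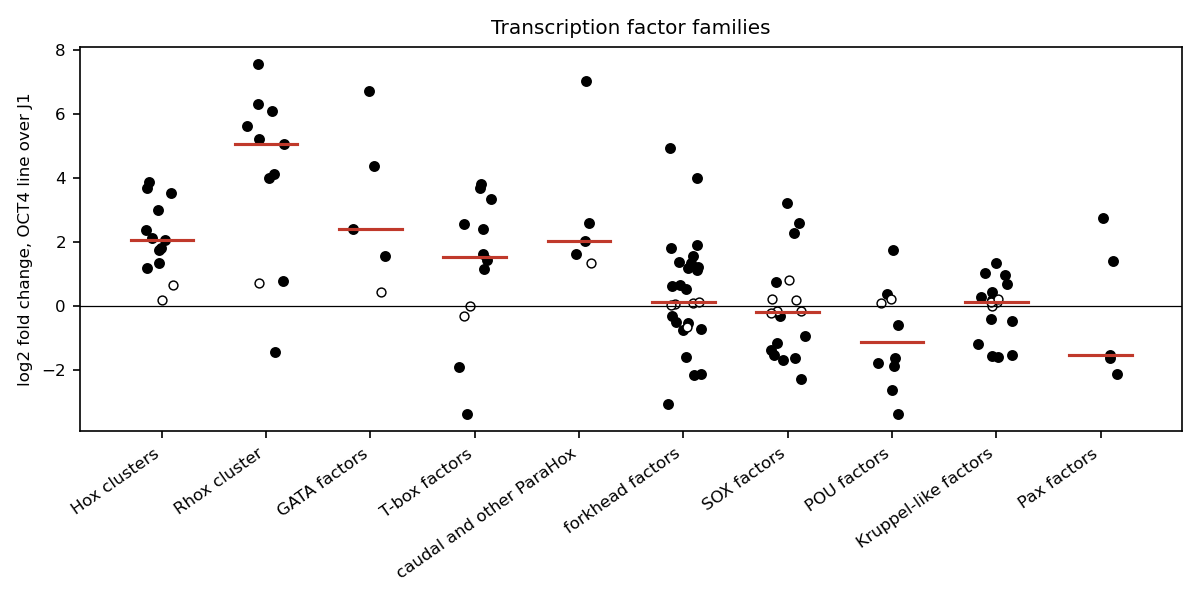
Log2 fold change of the OCT4 line over J1 (vertical axis) for each tested member of 10 transcription factor families (horizontal axis), with filled points for members called at an adjusted p under 0.05, open points for the rest and red lines for medians. Hox, Rhox and GATA medians lie at 2.05, 5.07 and 2.40 and those of POU and Pax factors at -1.11 and -1.53.

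Nodal, a TGF-beta family ligand, signals through activin receptors and SMAD2 and SMAD3 and induces its own inhibitors Lefty1 and Lefty2. Of 38 tested members of this pathway 19 were higher and 12 lower, with 9 and 5 changed by at least 2-fold. Lefty2 had 102, 102 and 99.1 CPM in J1 and 3.09, 2.67 and 1.64 in the OCT4 line, a difference of -5.36 (SE 0.123). For Lefty1 the J1 libraries had 33.3, 35.1 and 30.7 CPM and the OCT4 libraries 0.508, 0.678 and 0.420, a difference of -5.94 (SE 0.151), with 36 counts over the 3 OCT4 libraries. Neither inhibitor overlapped between the groups. The ligand gene Nodal fell by less, 0.79 (SE 0.0875), from 27.4, 25.1 and 23.1 CPM to 14.1, 14.4 and 15.4. Tgfb1, the TGF-beta 1 ligand, fell by 2.26, and Inhbb, an activin subunit, rose by 0.95.

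Effectors of the pathway were higher in 4 of 6 cases and lower in 1, and intracellular inhibitors in 4 and 2 of 7. Fstl3, a secreted activin antagonist, had 3.01, 2.43 and 3.29 CPM in J1 and 30.01, 30.4 and 33.0 in the OCT4 line, a rise of 3.42 (SE 0.124). Smad3, a signal transducer, rose by 1.44, Smad7, an inhibitory SMAD, by 1.09, the feedback gene Pmepa1 by 1.00 and the coreceptor gene Tgfbr3 by 1.36. The receptor gene Acvr2b and the shared transducer Smad4 did not pass the test, at -0.091 (SE 0.0652) and -0.14 (SE 0.0725). Tgfbi, a TGF-beta induced matrix protein, rose by 1.72. Tdgf1, the Nodal coreceptor Cripto, and Foxh1, the SMAD partner, fell by 0.28 and 0.51. Lefty1 and Lefty2 were also lower in the OCT4 line than in the EWS-OCT4 line, with differences of -4.62 (SE 0.164) and -4.58 (SE 0.124).

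BMP ligands act through SMAD1 and SMAD5 and raise the ID genes, which block differentiation of ES cells. Of 32 tested members 13 were higher and 9 lower, with 5 changed by at least 2-fold in each direction. For 3 of the 32, 2 of them higher, no J1 library reached 10 counts. Of the other 29 members 11 were higher and 9 lower. Bmp7 rose by 0.58. Bmp4, the ligand most used by ES cells, had 22.7, 28.01 and 23.5 CPM in J1 and 19.4, 21.2 and 22.3 in the OCT4 line, a difference of -0.24 (SE 0.0912). That call was lost without J1 replicate 2 (adjusted p = 0.151), OCT4 replicate 1 (0.131) or OCT4 replicate 2 (0.0622), and in a fit of the 6 compared libraries alone (0.0524). Smad6, the inhibitory SMAD of the pathway, had 2.25, 2.31 and 2.40 CPM in J1 and 17.5, 21.01 and 19.5 in the OCT4 line, a rise of 3.06 (SE 0.124). The receptor gene Acvr1 rose by 0.95 and Bmpr2 did not pass the test, at -0.17 (SE 0.0981). The direct target Id1 fell by 0.39, from 13.1 ± 0.340 to 10.02 ± 0.712 CPM (SD, n = 3). The 2 targets that rose by at least 2-fold were Gata2 and Gata3, which the trophoblast list holds as well. Gata3 was among the members without a J1 library at 10 counts.

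FGF4 made by ES cells activates ERK, which induces the immediate early genes and a set of feedback inhibitors. Over the whole pathway 23 of 69 tested members were higher and 24 lower, a share near the background in the higher and lower direction alike. Of the feedback inhibitors 8 of 11 were lower and 1 higher, with a median of -0.66. Spry4, a Sprouty inhibitor of receptor signalling, had 112, 123 and 123 CPM in J1 and 22.9, 21.7 and 21.9 in the OCT4 line, a difference of -2.43 (SE 0.0741). Dusp6, the phosphatase that inactivates ERK, fell by 0.73 and Spred2 by 0.95, while the stress-inducible phosphatase gene Dusp1 rose by 1.58. Spry1 did not pass the test, at -0.098 (SE 0.117).

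Immediate early targets of ERK split. Egr1 had 39.8, 57.6 and 48.4 CPM in J1 and 2.45, 2.80 and 3.32 in the OCT4 line, a difference of -4.08 (SE 0.147) with no overlap. Myc, a growth regulator, fell by 1.47. Fos and Jun, which form the AP-1 factor, rose by 1.76 (SE 0.135) and 2.14 (SE 0.130), with 20.5, 22.8 and 24.2 CPM of Jun in the OCT4 libraries against 4.30, 6.10 and 4.89 in J1. Etv1, an ETS factor, rose by 1.71. Among ligands Fgf17 fell by 3.67 and Pdgfa rose by 1.66. Fgf4 had 194, 173 and 182 CPM in J1 and 171, 145 and 156 in the OCT4 line and was called lower by a difference of -0.21 (SE 0.0717), which did not pass without OCT4 replicate 2 (adjusted p = 0.0933). Among receptors Fgfr2 and Erbb3 rose by 2.62 and 1.56 and Met, the hepatocyte growth factor receptor, fell by 1.97. The kinase gene Mapk3 (ERK1) did not pass the test, at -0.13 (SE 0.0904).

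LIF, supplied in the medium, signals through LIFR and GP130 to JAK kinases and STAT3. Members of this pathway were higher in 17 of 29 cases and lower in 7, with 9 and 2 changed by at least 2-fold and a median of 0.43. The ligand gene Lif had 3.66, 4.43 and 4.84 CPM in J1 and 8.91, 9.76 and 11.3 in the OCT4 line, a rise of 1.22 (SE 0.152). Lifr and Stat3 did not pass the test, at -0.14 (SE 0.0709) and -0.11 (SE 0.0630), and the GP130 gene Il6st fell by 0.31. The kinase genes Jak2 and Jak1 rose by 1.41 and 0.92. Socs3, the feedback inhibitor, had 82.0, 90.9 and 82.3 CPM in J1 and 178, 191 and 192 in the OCT4 line, a difference of 1.14 (SE 0.0700). Of 11 targets 7 were higher and 3 lower, with the survival kinase Pim1 and the coregulator Bcl3 rising by 1.82 and 1.42. Pias3, an inhibitor of STAT3, rose by 1.64. Myc, which also belongs to the targets, fell, and Klf5 fell by 0.43, although its libraries overlapped. Socs3 lies on chromosome 11, as do 5 of the 29 members.

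Wnt ligands stabilise beta-catenin, which acts through TCF and LEF factors. Of 68 tested members 26 were higher and 28 lower, with 18 and 16 changed by at least 2-fold, and 10 members lie on chromosome 11. No J1 library reached 10 counts for 6 of the 68, all of them higher, so these entered the test through another group. Of the other 62 members 20 were higher and 28 lower. Ligands, counted with the secretion genes Porcn and Wls, were higher in 8 of 14 cases and lower in 3. Wnt3, Wnt3a, Wnt8a and Wnt16 are ligands among the 6 without a J1 library at 10 counts. Wnt6 had 1.29, 1.64 and 0.705 CPM in J1 and 10.6, 12.5 and 9.91 in the OCT4 line, a rise of 3.16 (SE 0.209), beside Wnt7b described above. Receptors and R-spondins were lower in 9 of 19 cases and higher in 5, with Lgr6, an R-spondin receptor, falling by 2.31 and Fzd3, a Frizzled receptor, by 1.76. Among secreted inhibitors Sfrp5 and Dkk3 rose by 2.78 and 1.04, and Notum, an enzyme that inactivates Wnts, fell by 1.89.

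The TCF and LEF factors went in both directions. Lef1 fell by 4.84 and Tcf7 by 1.32 (SE 0.0651), from 140.2, 138 and 147 CPM to 55.8, 57.7 and 56.9, whereas Tcf7l2 and Tcf7l1 rose by 1.96 (SE 0.138) and 0.99. Axin2, a feedback gene taken as the general reporter of the pathway, had 16.9, 18.8 and 19.13 CPM in J1 and 6.28, 7.50 and 7.27 in the OCT4 line, a difference of -1.38 (SE 0.104). It lies on chromosome 11. Ccnd2, a cyclin, fell by 1.71, and Apcdd1, an inhibitor induced by the pathway, rose by 1.05. Axin1 did not pass the test, at -0.13 (SE 0.0734).

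Notch members numbered 10 higher and 9 lower of 27. Of 5 tested targets 4 were higher and 0 lower, among them Nrarp, with 3.05, 3.39 and 3.53 CPM in J1 and 12.5, 13.5 and 13.9 in the OCT4 line and a rise of 2.00 (SE 0.134), and Hes1, a bHLH repressor, with 1.32. The targets Hes7, Hes5 and Heyl were too low to test. Over the J1 libraries they had 43, 8 and 11 counts and over the OCT4 libraries 5, 3 and 10. The DNA-binding effector Rbpj rose by 1.13. Among receptors Notch1 rose by 0.52, Notch4 fell by 1.44, and Notch2 and Notch3 did not pass the test, at -0.059 (SE 0.0755) and 0.059 (SE 0.0684). Hedgehog members numbered 8 higher and 4 lower of 15. For 2 of the 15, both higher, no J1 library reached 10 counts, and of the other 13 members 6 were higher and 4 lower. The Hedgehog target Gli1 fell by 0.57 while the target and receptor Ptch1 rose by 0.61.

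Hippo signalling keeps the coactivators YAP and TAZ out of the nucleus, where they would act with TEAD factors. Of 27 tested members 16 were higher and 8 lower, with 7 and 1 changed by at least 2-fold and a median of 0.52. All 7 effectors on the list, which counts Vgll4 with the coactivators and TEAD factors, were higher, with Tead4 and Tead3 at 1.49 and 1.62. Of 7 tested targets 3 were higher and 2 lower, with a median of -0.35. Lats2, the kinase that inhibits YAP, had 2.33, 1.56 and 1.79 CPM in J1 and 15.2, 15.9 and 15.2 in the OCT4 line, a rise of 3.02 (SE 0.127). It had 1043 counts over the OCT4 libraries and 1924 over the EWS-OCT4 libraries. Amotl2, a junctional inhibitor of YAP, had 17.4, 16.8 and 16.03 and 139, 137 and 136, a rise of 3.04 (SE 0.0696). The YAP targets Ccn1 and Ccn2, secreted matricellular proteins, rose by 2.86 and 1.42, and the targets Axl and Birc5 fell by 1.43 and 0.55.

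Retinoic acid is made from vitamin A by retinaldehyde dehydrogenases and drives differentiation of ES cells through RAR and RXR receptors. Members of this pathway were higher in 15 of 25 cases, each by at least 2-fold, and lower in 7, with a median of 1.37. All 7 targets tested were higher. Genes of degradation and receptors were counted apart from these targets, and of 2 degradation genes tested 1 was higher and 0 lower. Cyp26a1, a degradation gene, had 36 counts over the J1 libraries and 40 over the OCT4 libraries. The receptor gene Rarb had 15 and 14. Tgm2, a transglutaminase, had 6.23, 7.58 and 5.74 CPM in J1 and 83.7, 94.1 and 84.0 in the OCT4 line, a difference of 3.74 (SE 0.101) with adjusted p = 4.64e-15. Stra8, a gene of meiotic entry, rose by 1.98 (SE 0.149), from 9.19 ± 1.82 to 36.2 ± 4.96 CPM (SD, n = 3), and Meis2, a homeobox gene, by 2.81. On the side of synthesis Aldh1a3, a retinaldehyde dehydrogenase, rose by 3.31 and Crabp1, which binds retinoic acid, fell by 1.28. Among receptors Rxra rose by 1.23 and Rara and Rarg fell by 0.80 and 0.47. Gata6 and Cdx1 count here and in other lists, so the lists are not independent of each other.

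In the insulin-like growth factor axis the fetal growth factor Igf2 had 1.29, 0.559 and 0.799 CPM in J1 and 500.4, 508 and 589 in the OCT4 line. Its difference of 9.23 (SE 0.159) was the largest of the genes named here, with 63 counts over the J1 libraries and 36103 over the OCT4 libraries. H19, the noncoding RNA of the same imprinted domain, rose by 3.91 (SE 0.235), with 26.0, 51.3 and 42.4 CPM in J1 and 525, 614 and 660.5 in the OCT4 line. In the EWS-OCT4 line Igf2 was at 93.9 ± 7.52 CPM and H19 at 20.5 ± 0.585 (SD, n = 3), so the difference between the stable lines was 2.50 (SE 0.10003) for Igf2 and 4.87 (SE 0.249) for H19. Of the 3 receptors Igf1r and Insr did not pass the test, at -0.20 (SE 0.103) and -0.17 (SE 0.0957), and Igf2r was called lower by 0.19 with overlapping libraries, a call lost without J1 replicate 3 (adjusted p = 0.0745), OCT4 replicate 1 (0.0561) or OCT4 replicate 3 (0.11), and in a fit of the 6 compared libraries alone (0.0549). The adaptor Irs2 rose by 2.39, the binding protein genes Igfbp2 and Igfbp7 by 1.07 and 2.77, and Igfbp3 and Igfbp4 fell by 1.63 and 0.77. Over the axis 5 of 15 members were higher and 5 lower. Of the 15 members 2 lie on chromosome 8, 1 on X and 3 on chromosome 11, Igfbp3 and Igfbp4 among the latter. Of the other 9 members 3 were higher and 2 lower.

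**Figure D5:**
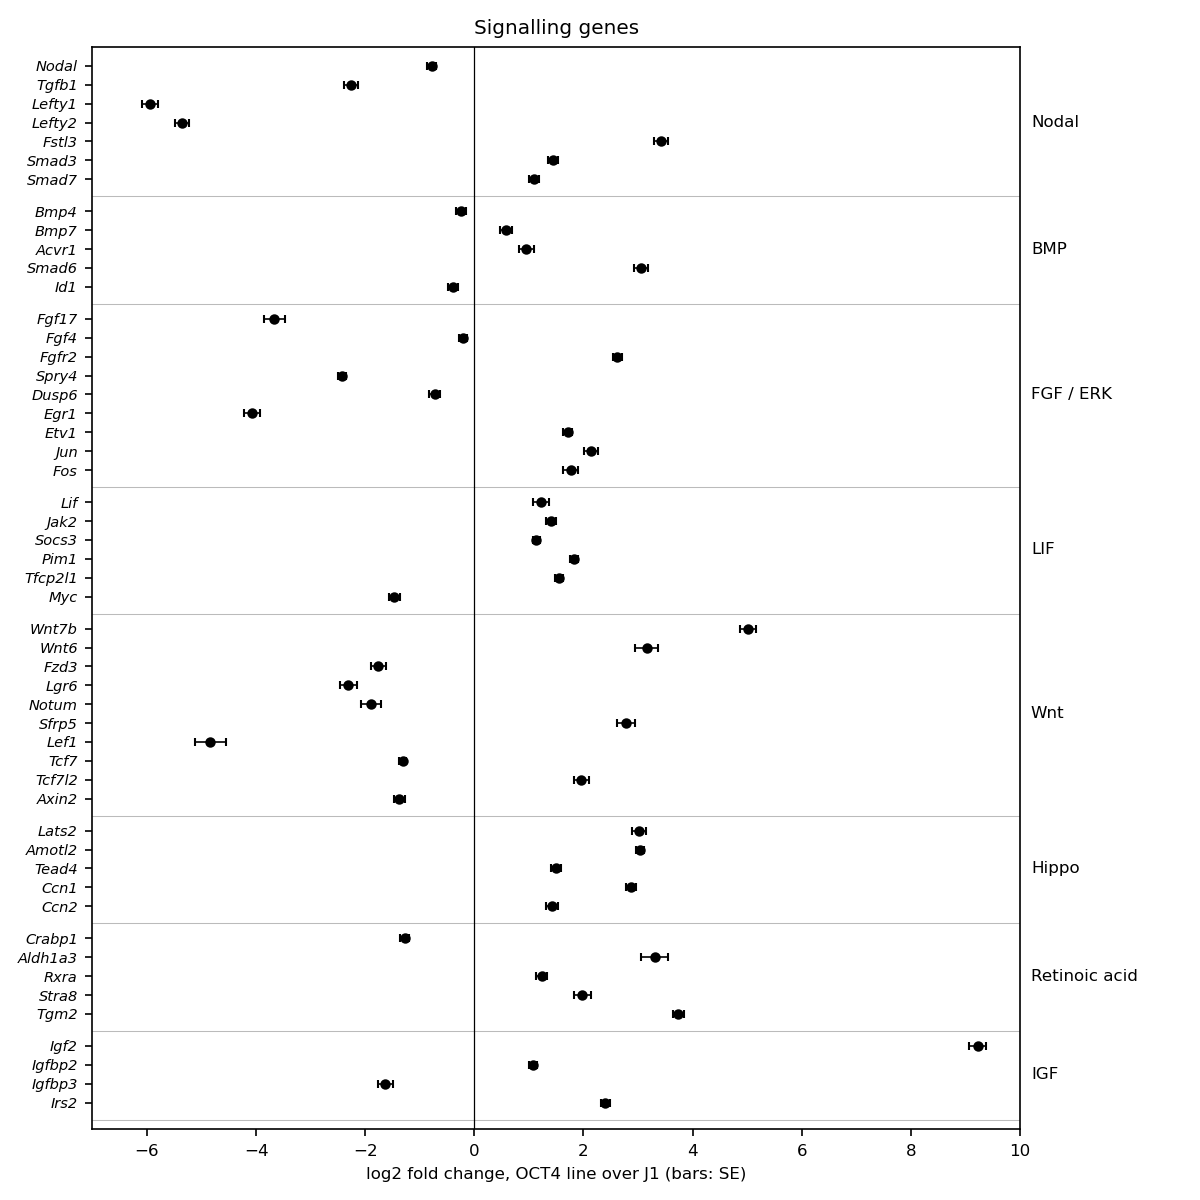
Log2 fold change of the OCT4 line over J1 (horizontal axis) with its standard error (bars) for genes of 8 signalling pathways, grouped at the right. The genes shown are called at an adjusted p under 0.05. Lefty1 and Lefty2 lie furthest to the left, at -5.94 and -5.36, and Igf2 furthest to the right, at 9.23.

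Genes of the epithelial state were lower in 11 of 19 cases and higher in 7, and those of the mesenchymal state were higher in 7 of 12 and lower in 2. Vim, the mesenchymal intermediate filament vimentin, had 59.7, 58.6 and 55.2 CPM in J1 and 256, 257 and 233 in the OCT4 line, a rise of 2.10 (SE 0.0706). E-cadherin (Cdh1) had 794, 852 and 829.5 CPM in J1 and 342, 333 and 335 in the OCT4 line. Cldn3 and Cldn4 rose by 2.91 and 2.17 while Cldn6 and Cldn7 fell by 0.86 and 0.88, so 4 of the 7 epithelial genes that rose are keratins or claudins. Mmp2, a gelatinase, fell by 1.28. Keratins numbered 4 higher and 5 lower of 13, with 9 of the 13 on chromosome 11, and claudins 4 and 2 of 10. For 2 of the 10 claudins no J1 library reached 10 counts, and of the other 8 claudins 3 were higher and 2 lower. Without EWS-OCT4 replicate 1, which changes the genes that pass the count filter, 8 keratins were lower. Cadherins numbered 2 higher and 6 lower of 13, of which 4 lie on chromosome 8.

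Matrix and adhesion families held members that rose and members that fell. Collagens numbered 7 higher and 11 lower of 34. Apart from the type IV chains, Col20a1 and Col11a1 rose by 2.73 and 1.90 and the type VI chains Col6a5 and Col6a2 fell by 3.36 and 3.08. Among laminins Lama5 rose by 0.88 and Lamb3 fell by 1.92. Among integrins Itga1 rose by 3.35, Itga9 fell by 1.90, and Itgb1, the common beta subunit on chromosome 8, fell by 0.76. Ephrins and their receptors numbered 10 higher and 6 lower of 18. Efnb1, an X-linked ephrin, rose by 2.61, and Epha2, a receptor, fell by 1.61.

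Targets of p53, the damage-responsive tumour suppressor, were higher in 15 of 22 cases and lower in 2, with 6 higher by at least 2-fold and a median of 0.64. Cdkn1a, the cyclin-dependent kinase inhibitor p21, had 39.3, 44.0 and 38.3 CPM in J1 and 102, 110.1 and 119 in the OCT4 line, a difference of 1.45 (SE 0.0827). Btg2, an antiproliferative gene, rose by 1.77 (SE 0.0703), Mdm2, the negative regulator of p53, by 1.28, and the death inducer Bbc3 (PUMA) by 1.13. Perp, a desmosomal protein, fell by 0.75, and Ccng1 did not pass the test, at 0.17 (SE 0.0872). In the EWS-OCT4 line Cdkn1a and Btg2 were lower than in the OCT4 line, with differences of 2.14 (SE 0.0860) and 1.90 (SE 0.0708) for the OCT4 line over it.

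Cell cycle inhibitors, Cdkn1a among them, were higher in 7 of 10 cases, each by at least 2-fold, and lower in 0. Cdkn2c, 1 of these, had 5, 7 and 2 counts in the J1 libraries and 29, 44 and 35 in the OCT4 libraries. It therefore entered the test through another group. Cdkn1c (p57), an imprinted inhibitor of trophoblast and other tissues, had 3.45, 4.43 and 3.76 CPM in J1 and 19.9, 19.7 and 21.6 in the OCT4 line, and Cdkn1b (p27) and Cdkn2b (p15) rose by 1.73 and 2.31. Cyclins and kinases numbered 3 higher and 5 lower of 12, with Ccnd3 rising by 1.60 and Ccne1 and Cdk6 falling by 1.23 and 2.25. Of 16 genes of replication and mitosis 3 were higher and 5 lower, with 0 changed by at least 2-fold in either direction. Mki67, the proliferation marker, did not pass the test, at 0.14 (SE 0.0806). In the BCL2 family of apoptosis regulators 14 of 19 members were higher and 3 lower, with none on chromosomes 8, 11 or X. Bcl2l14 and the BH3-only gene Bad rose by 1.79 and 1.27, the pro-survival gene Bcl2l2 rose by 1.17, and Bid and Bok fell by 1.03 and 1.45.

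Glycolysis and hypoxia genes were lower in 14 of 28 cases and higher in 7, with a median of -0.35. Pdk1, which diverts pyruvate from the mitochondria, had 153, 132 and 144 CPM in J1 and 42.0, 40.9 and 36.6 in the OCT4 line, a difference of -1.85 (SE 0.0760). Slc16a3, a lactate exporter on chromosome 11, fell by 1.99. Hk1, a hexokinase, rose by 1.47 (SE 0.0917), and Vegfa, the angiogenic factor, by 2.49 (SE 0.0736), from 35.3, 35.9 and 38.3 CPM to 216, 191 and 207. Gapdh did not pass the test, at -0.11 (SE 0.0727). Cholesterol synthesis genes numbered 7 higher and 10 lower of 22, with 1 in each direction changed by at least 2-fold. Integrated stress response genes numbered 9 and 7 of 22, with the stress factor Ddit3 (CHOP) rising by 1.76 and the X-linked amino acid transporter gene Slc7a3 falling by 1.89.

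Among DNA methylation genes Dnmt3l, the cofactor of the de novo enzymes, fell by 0.91, and the dioxygenase gene Tet3 rose by 1.72 while Tet2 fell by 0.44. Imprinted genes numbered 11 higher and 12 lower of 30, with Zdbf2 and Plagl1 falling by 1.33 and 1.54. Meg3 did not pass the test, at 0.17 (SE 0.1002). Genes of the two-cell-like state, a rare ES cell state that resembles the early embryo, were higher in 12 of 13 tested cases, each by at least 2-fold, and lower in 1, with a median of 2.51. For 3 of the 13 no J1 library reached 10 counts, and of the other 10 members 9 were higher and 1 lower. Zscan4c had 5.70, 3.31 and 5.74 CPM in J1 and 35.2, 27.7 and 29.9 in the OCT4 line. Zscan4 and Usp17l genes have near-identical copies, so the 12 counts share reads to an unknown degree. Germline genes numbered 11 higher and 8 lower of 25, with Taf7l (X-linked) and Dazl rising by 3.00 and 1.40 and Meioc falling by 2.14. Interferon and antigen presentation genes numbered 3 higher (5 without J1 replicate 1) and 10 lower of 16. Rigi, a sensor of viral RNA, fell by 3.29 (SE 0.116), and H2-K1, a class I MHC gene, by 1.82.

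The largest rises among genes above 10 CPM, apart from those described, included Mid1, Tinagl1 and Gadd45g. Mid1, a microtubule-associated ubiquitin ligase gene at the edge of the pseudoautosomal region of the X chromosome, had 2.57, 4.39 and 2.82 CPM in J1 and 1419.6, 1403 and 1591 in the OCT4 line, and 2075, 2226 and 2203 in the EWS-OCT4 libraries. Tinagl1, a basement membrane protein, had 1.69, 2.11 and 1.60 CPM in J1 and 98.3, 107 and 106 in the OCT4 line, a rise of 5.84 (SE 0.111). Gadd45g, a growth arrest gene, had 0.763, 0.798 and 0.846 and 34.0, 35.1 and 33.2, a rise of 5.40 (SE 0.133). Both were higher than in the EWS-OCT4 line, by 4.85 (SE 0.101) and 3.88 (SE 0.113).

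The largest falls, apart from those described, included Trh, Gap43, Crmp1 and Ncan. Trh, the thyrotropin-releasing hormone precursor, had 236, 320.1 and 272 CPM in J1 and 10.2, 13.5 and 14.0 in the OCT4 line, a difference of -4.46 (SE 0.126). Gap43, a growth cone protein, fell from 21.5 ± 3.74 to 0.667 ± 0.0620 CPM (SD, n = 3), and Crmp1, an axon guidance protein, and Ncan, a brain proteoglycan on chromosome 8, fell by 4.45 and 4.51. Ms4a14 and Enox1 fell by 5.08 (SE 0.174) and 4.56 (SE 0.124), and stood at 12.8 ± 0.442 and 25.9 ± 1.14 CPM (SD, n = 3) in the EWS-OCT4 line. Plac8 and the X-linked gene Fndc3c1 fell by 4.26 and 4.17.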

How the data were processed

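RNA of 9 libraries, 3 each of J1, EWS-OCT4 and OCT4 cells, was isolated with RNAiso Plus and made into libraries with a CORALL RNA-seq V2 kit, per the labels' protocols. The authors deposited 1 table for each library, holding whole-number raw counts for 40213 gene symbols. Build GRCm39 and the tools STAR, Salmon, fastp and GATK are named in the submitters' processing notes. The sources used here give neither the annotation nor the strand setting nor the use of molecular identifiers. Without them, genes that overlap, antisense genes and near-identical copies cannot be told apart. Library totals of all 9 were 21149358 to 24786305, which limits precision mainly for genes with few counts. No replicates were merged, since the chi-square of each pair was at least 3.36 times its degrees of freedom.

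Groups were taken from the sample titles. Genes were kept by filterByExpr (minimum count 10, minimum total 15) and fitted in edgeR 4.0.16 (R 4.3.3, limma 3.58.1) with TMM scaling and the quasi-likelihood test over all 9 libraries, which share the estimate of spread. Benjamini-Hochberg adjustment ran over all 16562 tested genes, and a p under 0.05 was a call. The reported adjusted p-values come from this test unless another is named. Group means are CPM of TMM-scaled libraries with their SD. The code was tested on simulated data. Members and lists were chosen with earlier results of these data known. Named genes are preset anchor genes, the 10 largest differences in each direction that had no overlap and a higher mean of at least 10 CPM, and up to 4 members of each list per direction with at least 5 CPM, with 2 per role in signalling lists. Members that did not pass are named as contrasts. Alternatives used other scalings, filters, tests (DESeq2 1.42.0, limma-voom, glmTreat), the 6 libraries alone, each library left out, and abundant genes or chromosomes left out. Leaving out chromosomes 8 and 11 together with X and Y was chosen after seeing the data. Chromosomes came from a GRCm38 annotation by symbol for 16042 tested genes, and no coordinate of the GRCm39 build was used.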

Additional observations from a re-analysis of the deposited data

How the results depend on the processing

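Under 21 alternatives the number of genes called stayed within 1.5 times the reported one, with these exceptions. With a minimum of 5 CPM in 3 libraries 1267 genes were higher and 928 lower by at least 2-fold. With glmTreat, which tests against a 1.5-fold difference, 2907 were higher and 2342 lower, and the share of higher genes among those called was 55.4% against 51.1%. Leaving out 1 library at a time gave 5367 to 5720 higher, 5126 to 5548 lower, 2503 to 2615 higher by at least 2-fold and 1943 to 2045 lower by at least 2-fold. With the replicate number as a block there were 5800 higher and 5556 lower, and 2504 and 1887 by at least 2-fold, and Pou5f1 fell by 1.78. Same-numbered J1 and OCT4 libraries correlated in their deviations at -3.17e-05 to 0.0297 (3 pairs) and others at -0.031 to 0.00797. J1 replicates 1 and 2 correlated best with their own number, at 0.0297 and 0.023. Among the OCT4 libraries J1 replicate 3 correlated best with another number, at 0.00164. With the EWS-OCT4 libraries, same-numbered J1 libraries correlated at 0.0737, 0.0468 and 0.0133, and same-numbered OCT4 libraries at 0.0157, 0.0258 and 0.0574. Other numbers correlated with the EWS-OCT4 libraries at -0.0644 to 0.0334. These correlations are small, and whether same-numbered libraries share more than a number was not settled. Of 394 called genes among the 421 tested by name, 13 lost the call under an alternative other than glmTreat, 88 under glmTreat, and 0 changed sign. A further 14 gained a call under at least 1 alternative. Leaving out 1 library gave them adjusted p of 0.00109 to 0.0485 (edgeR's quasi-likelihood test): without J1 replicate 1 Axin1, Ccng1, Dppa4, Eras, Igf1r and Insr, without J1 replicate 2 Bmpr2, Lifr, Meg3, Smad4, Sox4 and Stat3, without J1 replicate 3 Mki67, and without OCT4 replicate 1, 2 or 3 Eras, Igf1r, and Gata4 with Insr. The median of all genes lay between -0.00722 and 0.0161 across settings. Without a filter on low counts 20 Hox and 16 Rhox genes were higher and 15 keratins lower, and without chromosomes 8, 11, X and Y the endoderm list had 9 higher members. The cause of these shifts was not tested beyond the genes each setting leaves. Genes with few counts in J1, such as Cdx2 and Tnnt3, have fitted differences that depth limits. No J1 library reached 10 counts for 1 higher member in each of the LIF, retinoic acid, formative, germline and liver lists. The same held for the cadherin, integrin, metalloproteinase, semaphorin and apolipoprotein families. Such members entered the test through another group.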

Other observations

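Several gene families outside the lineages and pathways above held single members with large differences. Among S100 calcium-binding proteins 4 of 7 were higher and 1 lower, with S100a13 at 5.31 (SE 0.118) and S100a1 at 4.10 (SE 0.169). S100a13 had 1.21, 1.28 and 1.41 CPM in the J1 libraries and 51.2, 51.9 and 51.2 in the OCT4 libraries. Annexins, which bind membranes in the presence of calcium, numbered 4 higher and 4 lower of 10, with Anxa1 rising by 3.19 (SE 0.207) and Anxa11 falling by 0.72. Metallothioneins, which bind zinc and copper and all lie on chromosome 8, were lower in 3 of 4 cases and higher in 0, with Mt3 falling by 2.15 and Mt1 by 0.50.

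Guidance molecules of the semaphorin and plexin families numbered 10 higher and 10 lower of 28. Sema4c rose by 2.07 (SE 0.104), from 5.02, 5.23 and 5.17 CPM to 21.4, 22.0 and 21.3, and Sema5b fell by 3.07 (SE 0.162). Matrix metalloproteinases numbered 6 higher and 5 lower of 11, and without J1 replicate 1 or without OCT4 replicate 3 the higher members numbered 3. Apolipoproteins numbered 2 higher and 4 lower of 11, with Apoc1 rising by 2.49 (SE 0.102). Cathepsins, lysosomal proteases, numbered 2 higher and 3 lower of 10, with Ctsd rising by 0.83 and Ctsc falling by 1.34.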
